A study of Homo sapiens with 6 samples.

Results

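MYADM and 9 related MARVEL domain genes were followed in the transcriptome of HCT116 cells, 10 genes of the 58735 listed. The genes were chosen by name as MYADM and its relatives, with this comparison in view, so that their fold changes between the groups are given here as a description and not as a test. HCT116 is a human colorectal carcinoma cell line, labelled wild type in all libraries. The control group (CTR) had 3 RNA-seq libraries after a control transfection, and the miR-8485 group had 3 after transfection of the mimics at 50 nM, with collection at 48 h. What the control contained, and at what dose, is not given in the sources used here. The study asked how overexpression of this miRNA alters the transcriptome of colon cancer cells, and MYADM is among the predicted miR-8485 targets that it analyzed.

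A MARVEL domain is a bundle of membrane-spanning helices found in proteins that shuttle through vesicles and gather in ordered, cholesterol-rich patches of membrane. MYADM, MAL2 and PLLP (plasmolipin) belong to the branch known for membrane rafts and vesicle transport, MAL2 being required for carrying proteins across epithelial cells to the apical surface. The CMTM genes encode MARVEL proteins that keep receptors and immune ligands at the surface or send them into endosomes. MARVELD2 belongs to the branch of occludin, the tight junction protein, and MARVELD1 was listed beside it. MARVELD2 encodes tricellulin, which seals the corners where several epithelial cells meet.

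A miRNA pairs with messenger RNA mainly through its seed, bases 2 to 8 from the 5′ end, most often in the 3′ UTR. The mimic is shown first, as the study gives it, with its seed in capitals. Then come 30-base windows of the 3′ UTRs of those genes whose runs of alternating T and G bear on the results, written as sense-strand DNA 5′ to 3′, with the part of the run inside the window in capitals. MYADM and OCLN are shown for their long runs, MARVELD2 for a shorter run in a gene that rose, and CMTM7, CMTM4 and CMTM6 for a short site in genes that fell. Not shown are MAL2, with a short site and a rise, and PLP2, with a short site and a fall. SYNGR1, with a run of 14 bases and no call, is also not shown.
miR-8485 mimic: cACACACAcacacguau
MYADM, chr19:53875192-53875221, plus strand: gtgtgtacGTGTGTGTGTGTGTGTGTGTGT
OCLN, chr5:69555229-69555258, plus strand: tggcctaaGTGTGTGTGTGTGTGTGTGTGT
MARVELD2, chr5:69444206-69444235, plus strand: cacctgccGTGTGTGTGTGTGcccttttat
CMTM7, chr3:32454932-32454961, plus strand: cacccgtgctcTGTGTGTGccccttgctga
CMTM4, chr16:66620868-66620897, minus strand: gtgaagattatTGTGTGTGgtgaatgagtt
CMTM6, chr3:32482339-32482368, minus strand: catctgccattTGTGTGTcttagatgggtt
The sequence that pairs with the seed is TGTGTGT, and the windows come from hg38 with the GENCODE annotation. The 3′ UTR of MYADM (53874496 to 53876435), a single exon piece of 1940 bases, held 13 overlapping copies of TGTGTGT, all inside a run of 32 bases of which the window shows the start.

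All 10 genes reached a mean of at least 1 FPKM, fragment counts scaled by gene length and library size, over the 6 libraries and entered the fit of 12349 genes. The libraries held 17473874 to 18480047 fragments on listed genes. In the fit, 59.6% of these genes passed an adjusted p under 0.05, 29.1% upward and 30.5% downward, and in 66.5% the libraries of the groups did not overlap, with miR-8485 below in 34.0% and above in 32.5%. Of the 10 MARVEL genes, 8 passed, 4 upward and 4 downward, which is given beside that background and read no further. The median log2 fold change of the 10 was 0.08, against -0.0041 over all genes of the fit. Rescaling to TPM moved that overall median to -0.12 and the share of upward calls from 48.8% to 35.6%. None of the 8 changed direction with it. In bulk RNA a change of level per cell and a change in the number of cells that carry the RNA cannot be told apart. Of 6 epithelial markers, 5 reached 1 FPKM, VIL1 being the exception with at most 8 fragments, and their sum was 2598 to 2822 FPKM in CTR and 1724 to 1808 FPKM in miR-8485. The keratin genes KRT8, KRT18 and KRT19 fell, by 0.62, 0.97 and 0.58 on the log2 scale, while EPCAM and CDH1, both at -0.05, did not pass (adjusted p = 0.55 and 0.38 in limma). The sum of 5 fibroblast markers was 4.22 to 4.53 FPKM in CTR and 6.36 to 6.53 FPKM in miR-8485, nearly all of it COL1A1, with DCN at 0. Endothelial and leukocyte markers each summed to under 1 FPKM in every library. The part of these marker shifts in the results was not tested.

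**Figure D1:**
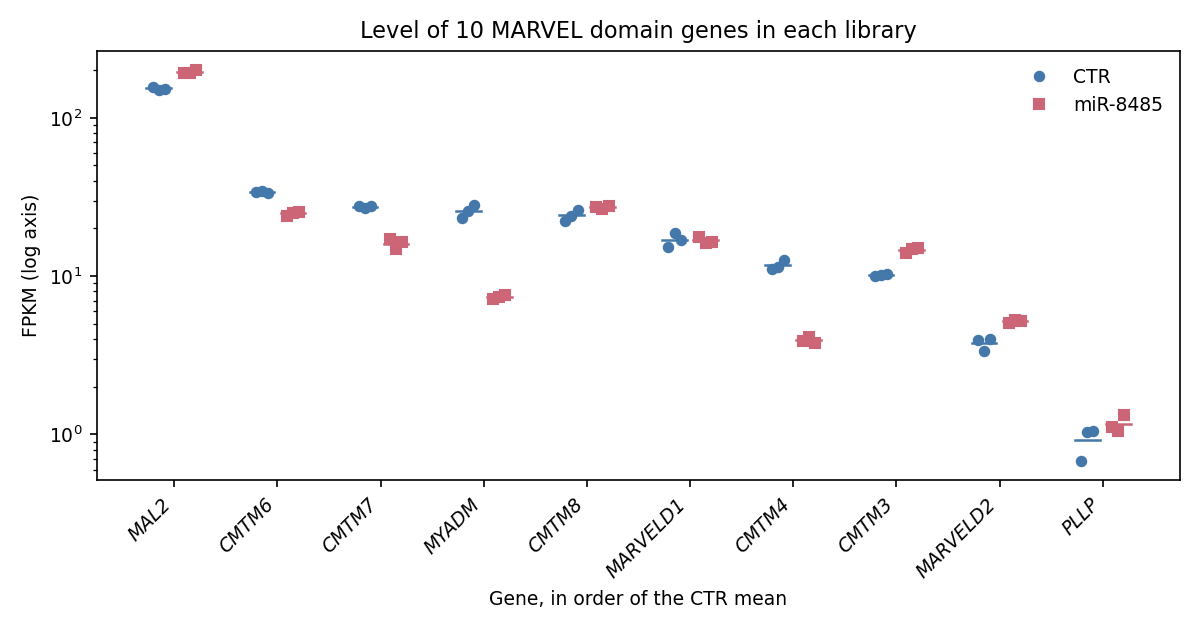
FPKM of the 10 MARVEL domain genes in each of the 6 libraries on a log axis, with genes in order of their CTR mean. Circles are CTR, squares are miR-8485 and lines are the means of 3 libraries. MYADM went from 25.7 to 7.37 FPKM and CMTM4 from 11.7 to 3.96 FPKM, while MAL2 stayed the highest gene in both groups.

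MYADM fell to 28.6% of its CTR level. It lies on chromosome 19 (53866223 to 53876437, plus strand). Its level was 23.2, 25.7 and 28.3 FPKM in CTR replicates 1 to 3 and 7.17, 7.37 and 7.56 FPKM in miR-8485 replicates 1 to 3. Every miR-8485 library lay below every CTR library, and the CTR libraries spread more, with a coefficient of variation of 9.73% against 2.66%. The means were 25.7 ± 2.50 FPKM (SD, n = 3) and 7.37 ± 0.196 FPKM (SD, n = 3), or -1.79 on the log2 scale (standard error 0.07, 95% interval -1.96 to -1.61). These values rest on 1540 to 1879 fragments per CTR library and 473 to 529 per miR-8485 library. Of the genes in the fit, 111, or 0.899%, fell at least as far. MYADM shares 2885 bases with the antisense gene AC008440.1, which had a mean of 0.305 FPKM. It shares 1424 more with a second antisense gene, AC008440.2 (53874626 to 53876049), which lies inside the 3′ UTR of MYADM and had a mean of 0 FPKM. Whether the counting used strand, and how fragments in these stretches were assigned, is not given in the sources used here. The processed pseudogene MYADML had at most 3 fragments in any library.

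MAL2, the apical transport gene on chromosome 8 (119165034 to 119245673, plus strand), went the other way. It had 157, 150 and 153 FPKM in CTR and 192, 193 and 200 FPKM in miR-8485. All 3 miR-8485 libraries were above all CTR libraries, at 127% of the CTR mean. On the log2 scale the rise was 0.34 (standard error 0.04). Through these opposite moves the ratio of MYADM to MAL2 went from 0.168 ± 0.0188 (SD, n = 3) to 0.0378 ± 0.000492 (SD, n = 3). PLLP, known from myelin and from apical endosomes, was the lowest of the 10. It had 0.681, 1.03 and 1.06 FPKM in CTR and 1.12, 1.05 and 1.32 FPKM in miR-8485. The groups overlapped, and the log2 fold change of 0.32 had a 95% interval from -0.21 to 0.85. Without CTR replicate 1, the lowest library, it was 0.13. PLLP, on chromosome 16 (57248547 to 57284687, minus strand), had 107 to 219 fragments per library and shares 5089 bases with ARL2BP on the opposite strand, which had a mean of 1.14 FPKM.

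The 5 CMTM genes fell into 3 that decreased and 2 that increased. CMTM4 and CMTM6 encode the proteins known to hold the immune checkpoint ligand PD-L1 at the cell surface. CMTM4, on chromosome 16 (66614750 to 66696707, minus strand), had 11.1, 11.4 and 12.6 FPKM in CTR and 3.91, 4.15 and 3.80 FPKM in miR-8485. The groups lay far apart, with miR-8485 at 33.8% of CTR. Its log2 fold change of -1.54 (standard error 0.07) was the nearest to that of MYADM among the 10. CMTM6 (chromosome 3, 32481312 to 32503408, minus strand) had 33.8, 34.3 and 33.7 FPKM in CTR and 24.1, 25.2 and 25.5 FPKM in miR-8485. The libraries again did not overlap, but the fall was smaller, to 73.5% of CTR, or -0.44 on the log2 scale (standard error 0.04). The ratio of CMTM6 to CMTM4 rose from 2.91 ± 0.202 (SD, n = 3) to 6.31 ± 0.346 (SD, n = 3), so that CMTM6 made up more of this pair after transfection.

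CMTM7 and CMTM8 act in endosomal sorting of the epidermal growth factor receptor, and with CMTM6 they lie next to each other on chromosome 3. CMTM7 (32391671 to 32483067, plus strand) had 27.8, 26.8 and 27.6 FPKM in CTR and 17.1, 14.8 and 16.3 FPKM in miR-8485. All miR-8485 libraries were lower, at 58.7% of CTR, a log2 change of -0.77 (standard error 0.06). CMTM8 (32238679 to 32370325, plus strand) had 22.3, 24.0 and 26.3 FPKM in CTR and 27.4, 26.7 and 27.7 FPKM in miR-8485. The groups did not overlap, but the highest CTR library lay close to the lowest miR-8485 library, and the difference on the log2 scale was 0.17 (standard error 0.06). CMTM8 passed the threshold only narrowly. It no longer did so under TPM, where the value was 0.06, without a filter on low genes or without the variance trend, or without CTR replicate 1 or 2 or any of the 3 miR-8485 replicates, with values from 0.12 to 0.19. The ratio of CMTM7 to CMTM8 went from 1.14 ± 0.101 (SD, n = 3) to 0.590 ± 0.0362 (SD, n = 3), and their intervals are 21345 bases apart on the same strand. CMTM7 and CMTM6 point toward each other and share 1756 bases, and how fragments in this stretch were assigned is not given in the sources used here.

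CMTM3, also linked to receptor degradation through early endosomes, rose. It lies on chromosome 16 (66603874 to 66613892, plus strand) and had 9.96, 10.2 and 10.3 FPKM in CTR and 13.9, 14.8 and 15.1 FPKM in miR-8485. All miR-8485 libraries were higher, at 144% of the CTR mean, and its log2 fold change of 0.52 (standard error 0.05) was the highest of the 10. CMTM3 ends 857 bases before the end of CMTM4, which is read from the opposite strand. These neighbors were at like levels in CTR and moved in opposite directions. Their ratio of CMTM4 to CMTM3 was 1.15 ± 0.0636 (SD, n = 3) in CTR and 0.271 ± 0.0168 (SD, n = 3) in miR-8485.

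**Figure D2:**
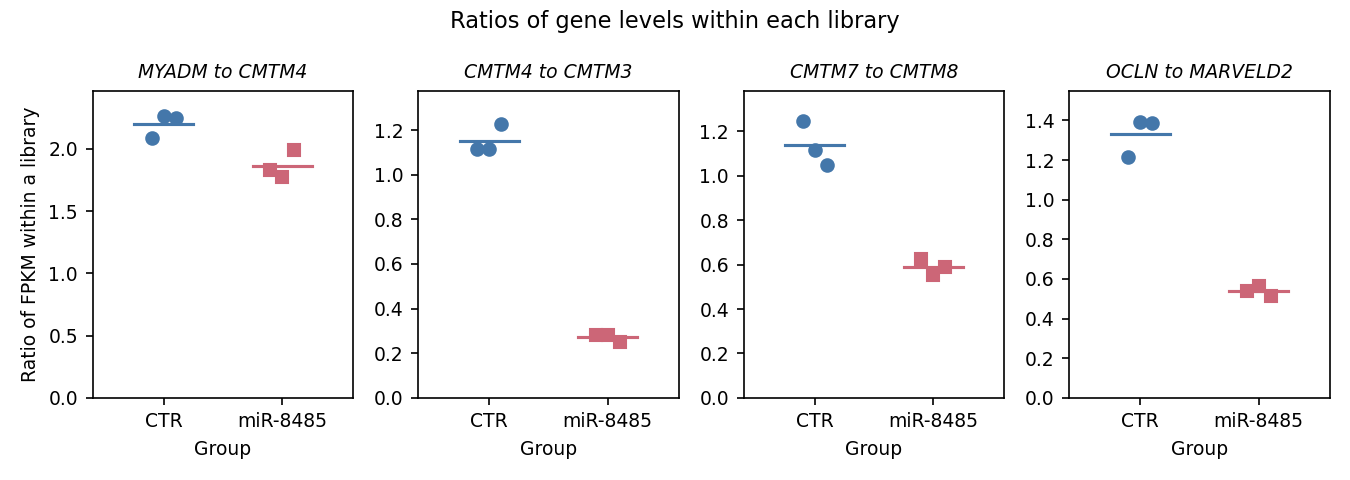
Ratio of the FPKM of 2 MARVEL genes within each library for MYADM to CMTM4, CMTM4 to CMTM3, CMTM7 to CMTM8 and OCLN to MARVELD2, with each vertical axis starting at 0. Points are libraries and lines are means of 3. The mean ratio of CMTM4 to CMTM3 dropped from 1.15 to 0.271, that of CMTM7 to CMTM8 from 1.14 to 0.590 and that of OCLN to MARVELD2 from 1.33 to 0.538, while MYADM to CMTM4 moved from 2.20 to 1.86.

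Neither MARVELD1 nor MARVELD2 fell with MYADM. MARVELD1 (chromosome 10, 97713173 to 97718152, plus strand) had 15.3, 18.8 and 17.0 FPKM in CTR and 17.7, 16.3 and 16.5 FPKM in miR-8485. The miR-8485 libraries lay within the CTR range. The log2 fold change was -0.01 with a 95% interval from -0.20 to 0.17, which still allows a change of that size in either direction. MARVELD2 (chromosome 5, 69415065 to 69444330, plus strand) had 3.93, 3.39 and 4.0 FPKM in CTR and 5.04, 5.31 and 5.22 FPKM in miR-8485. All miR-8485 libraries were above CTR, at 138% of its mean or 0.45 on the log2 scale (standard error 0.08).

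In order of level, MAL2 led CTR at 153 FPKM, followed by CMTM6 at 33.9 FPKM. CMTM7, MYADM and CMTM8 came next at 27.4, 25.7 and 24.2 FPKM, and neighbors among these 3 overlapped in their libraries. MARVELD1, CMTM4, CMTM3, MARVELD2 and PLLP followed at 17.0, 11.7, 10.1, 3.77 and 0.924 FPKM without overlap between neighbors. In miR-8485 the order was MAL2 at 195 FPKM, then CMTM8 at 27.2 and CMTM6 at 24.9 FPKM. MARVELD1, CMTM7 and CMTM3 followed at 16.8, 16.1 and 14.6 FPKM, with neighbors overlapping. MYADM now came after these at 7.37 FPKM, above MARVELD2, CMTM4 and PLLP at 5.19, 3.96 and 1.16 FPKM. The summed level of all 10 was 305 to 314 FPKM in CTR and 308 to 319 FPKM in miR-8485, ranges that overlap. Without MAL2 it was 148, 155 and 161 FPKM in CTR and 117, 116 and 119 FPKM in miR-8485. MYADM made up 7.61, 8.42 and 9.01% of the sum in CTR and 2.31, 2.39 and 2.37% in miR-8485, while the share of MAL2 went from 51.5, 49.1 and 48.8% to 62.1, 62.5 and 62.6%.

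The gene choice did not use the 3′ UTR sequence of these relatives, although the study had MYADM as a predicted target of this miRNA, so its sites are not independent of that prediction. Of 10686 genes in the fit with a 3′ UTR, 30.2% held at least 1 copy of TGTGTGT in the longest annotated form, and 1.63% held at least the 13 of MYADM. MARVELD2 held 3 copies, and 9.43% of genes held at least as many. Its level was higher in miR-8485. CMTM7 held 2 copies, and CMTM4, CMTM6 and MAL2 held 1 each. CMTM4, with the second deepest fall of the 10, had its single copy in a 3′ UTR of 7311 bases. The single copy of CMTM6 lies in the stretch shared with CMTM7. No copy was present in CMTM3, CMTM8, MARVELD1 or PLLP, of which 2 rose and 2 did not pass. The counts were the same in the 3′ UTR of the canonical transcript for all 10 genes. The medians that follow are over the genes of the fit with a 3′ UTR, and its length was not taken into account. On the log2 scale the median change was 0.02 for the 7462 genes without a copy and -0.09 for 1597 with 1. It was -0.16 for 1090 with 2 to 4, -0.31 for 292 with 5 to 9 and -0.41 for 245 with 10 or more. MYADM lay well below the median of its class and MARVELD2 above that of its own. A match of these letters describes the sequence and does not show that the mimic binds there.

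**Figure D3:**
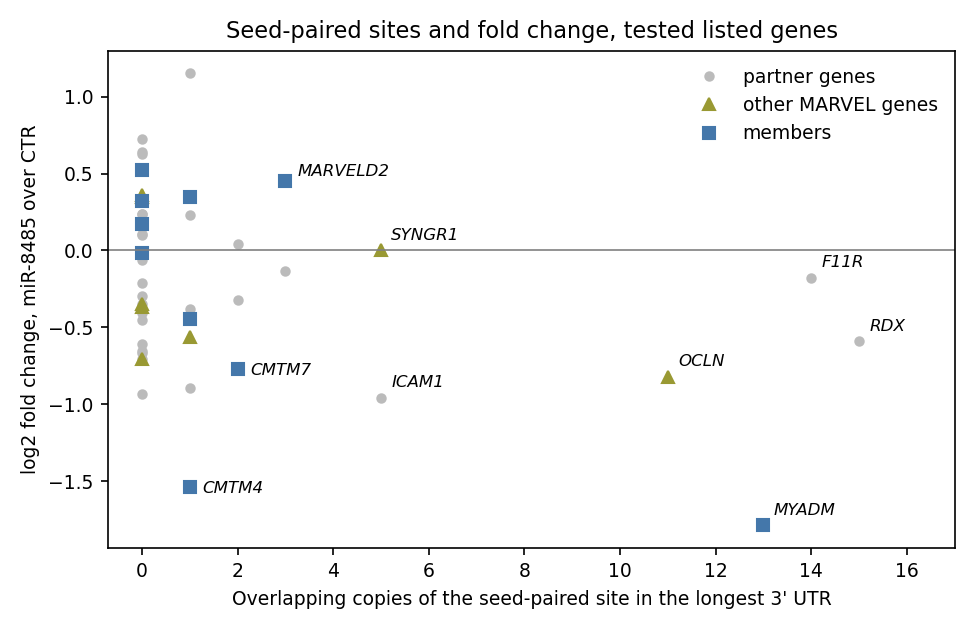
Log2 fold change, miR-8485 over CTR, against the number of overlapping TGTGTGT copies in the longest annotated 3′ UTR, for the 10 MARVEL genes (squares), the other MARVEL genes of the fit (triangles) and the partner genes (small circles). MYADM has 13 copies and a value of -1.79, CMTM4 has 1 copy and -1.54, and the 31 genes without a copy lie on both sides of 0.

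Other genes of the MARVEL superfamily were listed with earlier results of these data known, so their calls and adjusted p values are a description. Of 17 such genes, 8 entered the fit, of which 2 rose and 5 fell, with a median log2 fold change of -0.36, where 29.1% of all genes of the fit rose and 30.5% fell. The other 9 were low, with MAL listed at 0 in all libraries, the close MYADM relative MYADML2 at 10 fragments or fewer, CMTM1 at 17 or fewer, and SYPL2 the highest at 64. OCLN, the gene of occludin, had 4.78, 4.72 and 5.55 FPKM in CTR and 2.72, 2.98 and 2.68 FPKM in miR-8485. Its groups did not overlap, and it fell by 0.82 on the log2 scale (standard error 0.09, adjusted p = 0.00017 in limma). OCLN held 11 copies of TGTGTGT, 9 of them in a run of 24 bases, and lies 47961 bases from MARVELD2 on the same strand. Its pseudogene copy OCLNP1 had at most 16 fragments in any library. The ratio of OCLN to MARVELD2 was 1.33 ± 0.0998 (SD, n = 3) in CTR and 0.538 ± 0.0249 (SD, n = 3) in miR-8485. The third gene of this branch, MARVELD3, rose by a log2 fold change of 0.36 (adjusted p = 0.0066 in limma).

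Among the vesicle genes, MALL, a relative of MAL2, fell with a log2 fold change of -0.70 (adjusted p = 0.00023 in limma). PLP2, an endoplasmic reticulum and membrane protein gene, had 127, 124 and 129 FPKM in CTR and 84.5, 86.1 and 87.5 FPKM in miR-8485. That separation gave a log2 fold change of -0.56 (adjusted p = 2.2e-05 in limma). In the synaptophysin and synaptogyrin branch, which serves small vesicles, SYPL1 at -0.35 and SYNGR3 at -0.37 fell, SYNGR2 at 0.35 rose and SYNGR1 at 0.00 did not pass (adjusted p = 0.99 in limma). SYNGR1 held 5 copies of TGTGTGT. All 7 calls were kept in every alternative that tested these genes.

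**Figure D4:**
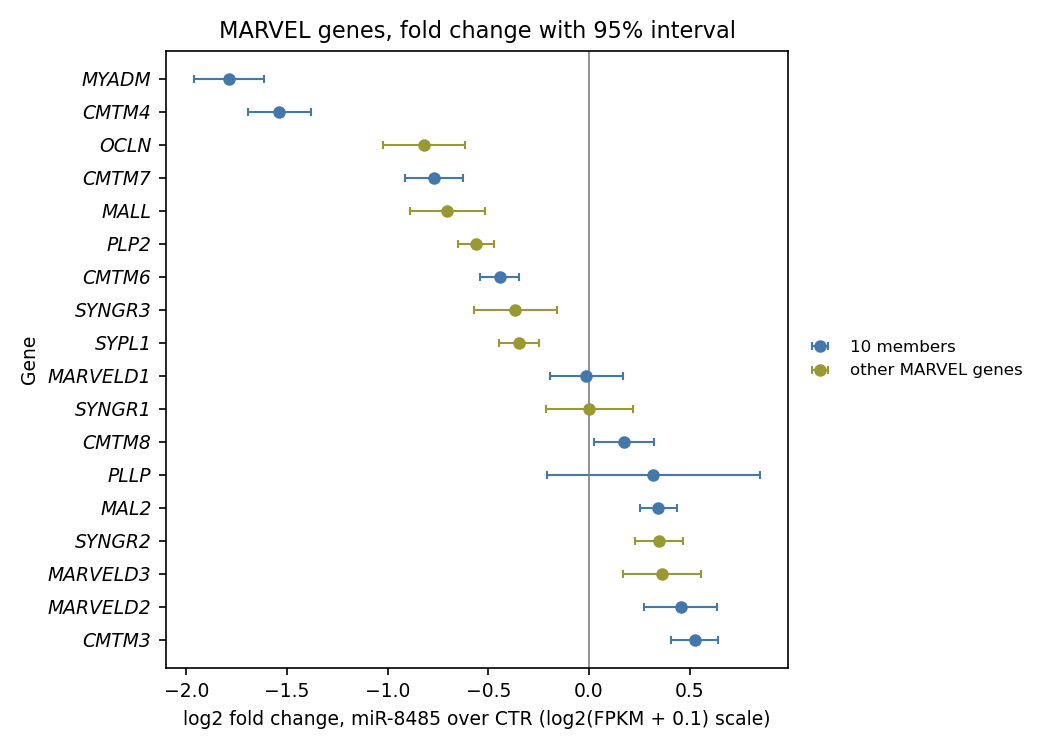
Log2 fold change, miR-8485 over CTR, of the 10 MARVEL genes and the 8 other MARVEL genes of the fit, with 95% intervals. MYADM at -1.79 and CMTM4 at -1.54 lie apart from the next gene, OCLN at -0.82, and the upper end is CMTM3 at 0.52.

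Partner genes were listed by the known work of their proteins with these MARVEL proteins. Earlier results of these data were known by then, so their calls and adjusted p values are given as a description. Of 38 listed, 32 entered the fit, of which 8 rose and 16 fell, with a median log2 fold change of -0.16. The shares over all genes of the fit, 29.1% up and 30.5% down, are the background for this count and for those of the groups within it, which were not tested as lists. MYADM is known to keep membrane ordered around RAC1 during cell spreading and to act with the ezrin, radixin and moesin proteins, and in this group of 12 genes 3 rose, 8 fell and 1 did not pass, beside 59.6% called over all genes. EZR (ezrin), which ties actin to the membrane, had 645, 638 and 667 FPKM in CTR and 338, 335 and 349 FPKM in miR-8485. All its miR-8485 libraries lay far below CTR, with a log2 fold change of -0.93 (adjusted p = 4.2e-06 in limma). RDX (radixin) fell with -0.59 and held 15 copies of TGTGTGT, while EZR held none. MSN (moesin), at -0.29 (adjusted p = 0.027 in limma), passed less firmly, with adjusted p values from 0.0668 to 0.0808 without CTR replicate 2 or 3 or miR-8485 replicate 1 or 2. Nor did MSN pass without a filter on low genes (adjusted p = 0.0808 in limma) or without the variance trend (0.0510). ICAM1, an adhesion molecule linked to this complex in endothelium, fell with -0.96 on 47 to 134 fragments per library and held 5 copies.

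ARF6, a GTPase of membrane recycling, fell with a log2 fold change of -0.45. RAC1 at 0.23 rose (adjusted p = 0.004 in limma), as did the caveolin gene CAV1 at 0.19 and the flotillin gene FLOT2 at 0.23, and none of these 3 passed under TPM. FLOT1, at -0.01, did not pass. The other caveolar genes CAV2 at -0.67, CAVIN1 at -0.35 and CAVIN3 at -0.61 fell. The ratio of CAV2 to CAV1 was 0.266 ± 0.0089 (SD, n = 3) in CTR and 0.146 ± 0.00245 (SD, n = 3) in miR-8485.

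MAL2 is known to bind TPD52 proteins and to work with the formin INF2 and CDC42 in apical transport. Of 10 genes listed for this route, 6 entered the fit, of which 2 rose and 3 fell, beside the same 59.6% called over all genes. TPD52 at -0.65 and TPD52L2 at -0.41 fell, while TPD52L1 at 0.62 rose (adjusted p = 7.5e-05 in limma). MUC1, an apical mucin carried by this route, rose with 0.64, and INF2 at 0.04 did not pass and was at -0.07 under TPM. STX3, an apical fusion protein gene, had -0.13 and an adjusted p of 0.032 in limma, which was 0.0599 to 0.0942 when any of the 6 libraries was left out. STX3 also did not pass under quantile normalization (adjusted p = 0.111 in limma), with a replicate block (0.0533) or with voom (0.0587). CDC42, which most cells use, was listed with at most 20 fragments and shares its interval with another protein-coding gene of the table, so no value is given for it.

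Among 8 genes listed for membrane proteins that CMTM proteins handle, or for related endosome and ubiquitin genes, 1 rose and 3 fell. This stands beside the 59.6% called over all genes. CD274, which encodes PD-L1, had 1.42, 1.45 and 1.22 FPKM in CTR and 0.922, 0.646 and 0.844 FPKM in miR-8485. The groups did not overlap, the log2 fold change was -0.71 (adjusted p = 0.018 in limma), and the adjusted p was 0.0603 without CTR replicate 2, on 48 to 108 fragments per library. EGFR had 8.49, 9.03 and 9.45 FPKM in CTR and 4.72, 4.73 and 4.89 FPKM in miR-8485, clear of each other, with a log2 fold change of -0.90 (adjusted p = 1.9e-05 in limma). CD58, an adhesion ligand held by CMTM6, had a value of -0.21 (adjusted p = 0.062 in limma), and without CTR replicate 3 its adjusted p was 0.0209. STUB1, a ubiquitin ligase of PD-L1, had 0.21 (adjusted p = 0.081 in limma), with 0.0482 without CTR replicate 2. Among the early endosome GTPases, RAB5B fell with -0.38, RAB5C at 0.11 did not pass, and RAB5A rose with 0.24 (adjusted p = 0.015 in limma) but not under TPM or without miR-8485 replicate 3, where the adjusted p was 0.0564. IL17RC, a receptor that CMTM4 brings to the surface, had -0.06 and did not pass.

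At the junctions, LSR and ILDR1 encode the angulins that bring tricellulin to the corners between cells. ILDR1 rose, from 0.664, 1.18 and 0.882 FPKM in CTR to 1.87, 2.69 and 1.82 FPKM in miR-8485. These libraries did not overlap, and the log2 fold change was 1.15 (adjusted p = 0.0044 in limma) on 36 to 146 fragments per library. LSR was far more abundant, with a CTR mean of 118 FPKM against 0.908 FPKM for ILDR1, and had -0.03 and did not pass, except under quantile normalization with -0.12 (adjusted p = 0.0186). CGN (cingulin), a scaffold under tight junctions, rose with 0.73 (adjusted p = 0.00079 in limma), whereas the scaffold TJP1 fell with -0.32 (adjusted p = 0.0048 in limma). TJP3 at 0.10 did not pass and was at -0.01 under TPM. The adhesion molecule gene F11R held 14 copies of TGTGTGT and had -0.18 (adjusted p = 0.032 in limma), which became 0.0505 to 0.0886 without any of the CTR replicates or miR-8485 replicate 1. Nor did F11R pass without a filter on low genes (adjusted p = 0.0665 in limma), without the variance trend (0.0540) or under quantile normalization (0.0722).

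**Figure D5:**
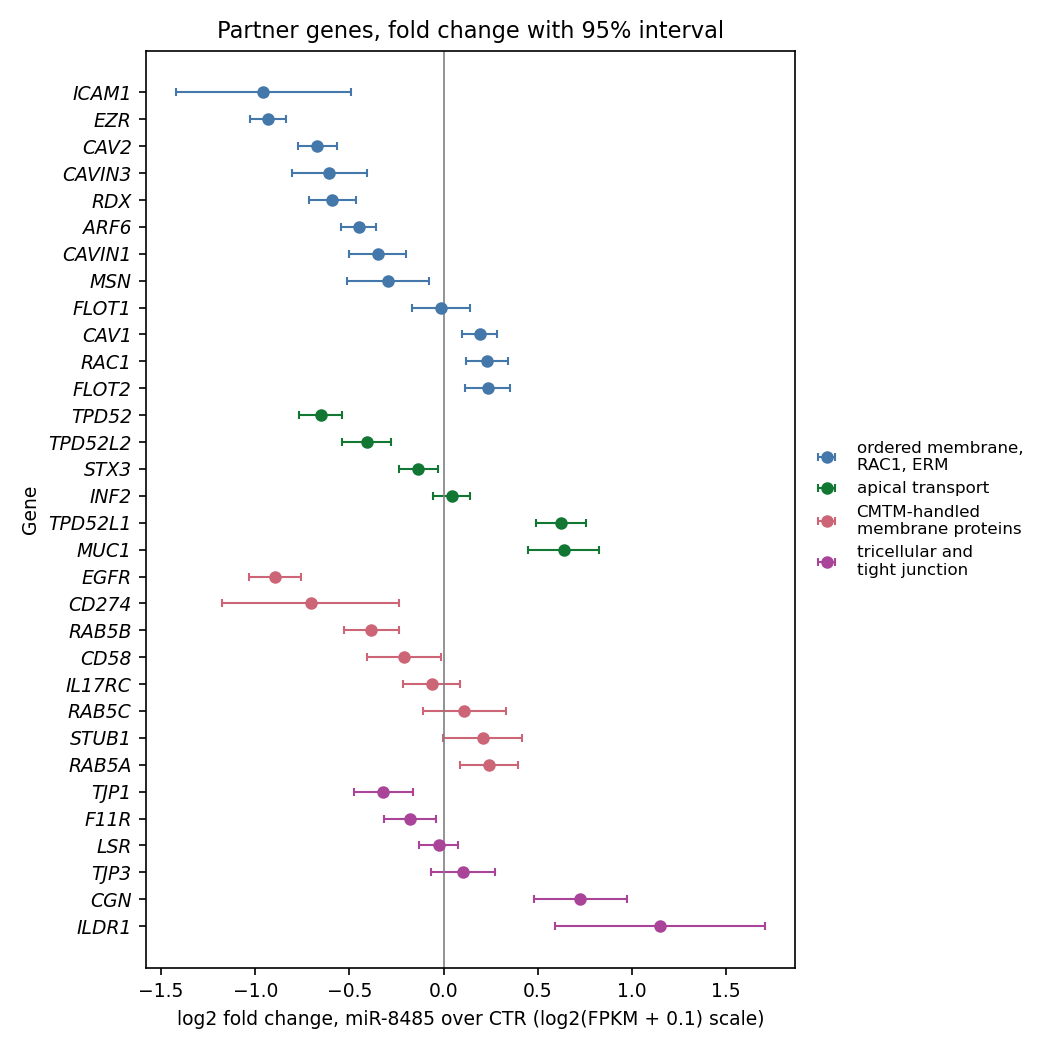
Log2 fold change, miR-8485 over CTR, of the 32 partner genes of the fit in 4 groups by function, with 95% intervals. Values run from -0.96 for ICAM1 to 1.15 for ILDR1, and each group holds genes on both sides of 0.

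The 5 protein-coding genes whose pattern was most like that of MYADM, by Pearson r of log2(FPKM + 0.1) over the 6 libraries, were SNN (0.9997), KPNB1 (0.9997), HMGA1 (0.9996), GPRC5A (0.9995) and PATL1 (0.9995). The libraries form 2 separate groups, so this measure follows the difference between them first, and it is a description of likeness. HMGA1, a chromatin protein gene, went from a mean of 1105 to 376 FPKM, a log2 fold change of -1.55. KPNB1 (importin beta) had -0.99, SNN had -0.99, PATL1, an mRNA decay factor gene, had -1.30 and GPRC5A, an orphan receptor gene, had -0.87. Copies of TGTGTGT in the longest 3′ UTR numbered 17 in GPRC5A, 2 in KPNB1, 1 in SNN and 0 in HMGA1 and PATL1.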

How the data were processed

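RNA-seq was performed on 6 HCT116 libraries, 3 per group, from independent biological replicates per the study's methods. Per the submitters' processing notes and the study's methods, the authors mapped trimmed reads to hg38 with HISAT2 2.0.5 and counted fragments per gene with featureCounts 1.5.0-p3. The authors deposited FPKM values, in which a gene's fragments are scaled by its length and the library's total, beside gene length, strand and interval. The authors' own test used DESeq2 on counts. As FPKM was deposited, log2(FPKM + 0.1) was fitted here by limma 3.58.1 (R 4.3.3), eBayes taking a variance trend, for the 12349 genes with a mean of at least 1 FPKM, two-sided, with Benjamini-Hochberg adjustment and calls at an adjusted p under 0.05. Fold changes on this scale understate those of low genes. Counts, ratios and plots were made in Python 3.11.15 (numpy 2.4.6, pandas 2.3.3, matplotlib 3.10.9).

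In every library, 100% of values above 0 equaled whole fragments within 0.01 of a fragment, which gives the depth of 17473874 to 18480047 fragments on listed genes. The chi-square per gene lay between 2.68 and 9.60 in the 6 replicate pairs and between 54.4 and 62.4 in the 9 pairs across groups. Within groups, CTR replicate 1 stood somewhat apart, at 9.60 with CTR replicate 2 and 7.74 with CTR replicate 3. The remaining replicate pairs lay between 2.68 and 3.67. Every library was therefore kept as its own replicate. FPKM does not measure total RNA per cell. On libraries simulated for this comparison, limma recovered 186 of 190 changed genes among 12237 tested, with 10 false calls. Far fewer genes were changed there than the 59.6% called in these data, and by larger folds than many named here. The recovery of small changes was therefore not measured.

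The 10 genes and all lists were chosen with earlier results of these data known. Named were the 10 genes, every listed relative and partner gene with a mean of at least 1 FPKM (below it, fragments only), genes of the fit within 200 kb of MYADM, and the 5 protein-coding genes outside the lists most correlated with MYADM. The result for the genes around MYADM is not reported here. The 3′ UTRs came from hg38 with GENCODE release 44, the longest per gene, and for all 10 genes the canonical 3′ UTR lay inside the interval in the table. Alternatives were other pseudocounts, filters and scalings, no variance trend, a replicate block, voom on recovered fragments, each library left out and the canonical 3′ UTR.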

Additional observations from a re-analysis of the deposited data

How the results depend on the processing

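No gene past the threshold changed direction under the alternatives run. Among genes that did not pass, MARVELD1, SYNGR1, FLOT1, LSR, INF2, TJP3 and RAB5C changed sign under a scaling or without a library, MARVELD1 reaching 0.06 without CTR replicate 2 and SYNGR1 reaching -0.11 under TPM. MYADM ranged from -1.91 (TPM) to -1.67 (pseudocount of 1), and from -1.86 to -1.72 with a library left out, and CMTM4 from -1.67 to -1.36. Of the 10 MARVEL genes, 9 kept their side of the threshold in every alternative that tested them, CMTM8 being the exception, as did 8 of 8 other MARVEL genes and 21 of 32 partner genes. A filter on a mean of at least 5 FPKM left 4 of the other MARVEL genes, and 4 passed, 1 up and 3 down, since fewer were tested. Under TPM 4 partner genes rose in place of 8. Replicate numbers are shared by the groups. The correlations of same-numbered libraries in their deviations from the group means were 0.067, 0.033 and -0.064, and those of other pairs ran from -0.094 to 0.061. Such deviations cancel within each group of 3, so this check cannot decide whether the numbers pair the libraries. With a replicate block 3634 genes rose and 3754 fell over the whole table, MYADM stayed at -1.79, and the only named call that changed was STX3 (adjusted p = 0.0533). Not every library correlated best with its own number. Depth limits the genes with few fragments per library, PLLP, ICAM1, CD274, ILDR1 and CAVIN3 among them, and 3 libraries per group limit every interval.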
